A study of Mus musculus with 4 samples.

Results

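Gap junction genes are described here in embryonic hearts that lacked TIE2, the endothelial receptor for angiopoietins (gene *Tek*), in the endocardium. The genes are *Gja4* (connexin 37), *Gja5* (connexin 40), *Gja1* (connexin 43) and *Gjc1* (connexin 45), 4 of the 32285 genes counted. They were selected on measured values, the genotype difference of *Gja4* in an earlier look at these data: *Gja4* differed between genotypes in one direction in endocardial cells (EdCs) of the chambers and in the other direction in EdCs of the cushions. The values of the 4 genes by genotype in these 2 classes are therefore a description without a test, and tests are given only in the other cell classes.

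Connexins are membrane proteins that assemble into hemichannels, and hemichannels of touching cells dock to form gap junctions, through which ions and small molecules pass directly. Connexin 37 and connexin 40 are known from endothelium, where both mark arteries, and connexin 40 also serves fast conduction in atrial and trabecular myocardium. Connexin 43 is the main connexin of working ventricular myocardium, and connexin 45 is the early connexin of the heart tube, known from slowly conducting regions such as the atrioventricular canal and outflow tract.

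The entire heart region of mouse embryos at E10.5 was dissociated and profiled cell by cell in droplets on the 10x Genomics platform, which tags each captured transcript with a unique molecular identifier (UMI) so that amplified copies count once. The control hearts were *Tie2fl/fl*, carrying the floxed Tie2 alleles without Cre. The mutant hearts, labelled Nfatcre-Tie2flfl and called *Tie2-cko*, were *Nfatc1Cre;Tie2fl/fl*, in which a constitutive Cre knocked into Nfatc1 acts in the endocardium, and both groups thus carried the floxed alleles. The methods name 2 hearts per genotype from 1 litter of mixed 129 and C57/BL6 background and of both sexes, with somite-matched libraries sharing a lane, without saying which libraries were matched. The 4 libraries are called by their numbers: control 5 and 7, *Tie2-cko* 6 and 8. Nothing further says that libraries of a genotype came from separate hearts, so p-values measure the spread between these libraries.

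After filtering, 10097, 5684, 8449 and 9189 cells remained in libraries 5, 6, 7 and 8, with a median of 14878 to 25875 UMIs per cell, deepest in *Tie2-cko* library 6. Any 2 libraries shared 12 to 29 barcodes among kept cells. Libraries 5 and 6 stood apart from 7 and 8 in holding clusters of non-cardiac cells that the others nearly lacked, such as 527 and 555 against 2 and 3 cells of a cluster led by *Barx1* and *Cxcl13*. In each of the 6 cell classes compared, the summed level of 5 red blood cell markers was higher in both controls, in chamber EdCs 76.2 and 33.4 UMIs per 10000 against 12.9 and 12.4 in *Tie2-cko*. The part of these differences in the results below was not tested.

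The control regions of the genes are shown because FOXO1, a transcription factor restrained by TIE2 signalling, is a subject of the study. The 250 bases before the RefSeq start of 3 of them are printed 5′ to 3′ on the strand of the gene, with the letters found in a motif search in capitals (RefSeq, GRCm38.p6). They lie at chr4:127314040-127314289 on the minus strand (*Gja4*), chr3:97032152-97032401 on the plus strand (*Gja5*) and chr10:56377050-56377299 on the plus strand (*Gja1*).
Gja4: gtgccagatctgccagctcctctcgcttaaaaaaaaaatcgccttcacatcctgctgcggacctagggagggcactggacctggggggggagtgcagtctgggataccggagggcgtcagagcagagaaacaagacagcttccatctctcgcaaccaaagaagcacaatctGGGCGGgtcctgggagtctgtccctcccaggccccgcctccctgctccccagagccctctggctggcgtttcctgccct
Gja5: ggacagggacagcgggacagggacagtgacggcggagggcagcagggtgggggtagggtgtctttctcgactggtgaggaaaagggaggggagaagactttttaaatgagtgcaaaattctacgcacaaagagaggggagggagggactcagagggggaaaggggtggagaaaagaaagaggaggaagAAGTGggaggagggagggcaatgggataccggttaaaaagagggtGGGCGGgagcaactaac
Gja1: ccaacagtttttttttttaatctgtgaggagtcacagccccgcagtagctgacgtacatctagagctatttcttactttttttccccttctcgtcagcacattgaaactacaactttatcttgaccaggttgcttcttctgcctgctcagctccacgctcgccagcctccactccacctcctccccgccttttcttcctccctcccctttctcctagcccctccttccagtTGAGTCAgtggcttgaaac
By GENCODE M21 on GRCm38, the gene bodies span chr4:127311421-127314039 for *Gja4*, chr3:96904693-97077416 for *Gja5*, chr10:56377330-56402513 for *Gja1* and chr11:102799579-102819700 for *Gjc1*. The *Gja5* window lies inside its gene body and so precedes an internal start, whereas the *Gja4* and *Gja1* windows lie outside theirs. Both strands were searched for 5 motifs: TGTTTAC (FOXO), AGGTGT (T-box), AAGTG (Nkx2-5), TGAGTCA (AP-1) and GGGCGG (Sp1), which do not contain one another. They occur in 3.17%, 11.8%, 40.7%, 4.46% and 32.7% of 32851 upstream windows of the same length. The *Gja4* window held the Sp1 letters 79 bases before the start. The *Gja5* window held the Nkx2-5 letters at 62 bases and the Sp1 letters at 17 bases, and the *Gja1* window held the AP-1 letters at 19 bases before the start. The FOXO and T-box letters are in none of these 3 windows, which says nothing of the factors' action elsewhere.

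Cell classes were rebuilt by clustering, with the connexins left out of the clustering genes, and named from marker lists. Chamber EdCs numbered 378, 138, 593 and 465 cells in libraries 5, 6, 7 and 8, and cushion EdCs 266, 133, 453 and 455. A small class of vascular cells, with all 8 of its markers present, numbered 83, 64, 41 and 64. Cardiomyocytes (CMs) numbered 12592 in all, and mesenchymal cells (MCs) and epicardial cells were the other classes compared. A level below is the mean over the cells of a library of UMIs of a gene per 10000 UMIs of the cell.

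*Tek*, the targeted gene, was at 0.888 and 0.998 in chamber EdCs of controls 5 and 7, and at 0.186 and 0.150 in *Tie2-cko* 6 and 8. It fell by 2.48 on the log2 scale (SE 0.174, adjusted p = 0.00491, edgeR's quasi-likelihood test on UMIs summed per library, n = 2 libraries per genotype). In cushion EdCs it was at 0.889 and 1.67 in the controls and at 0.350 and 0.287 in *Tie2-cko*, a log2 fold change of -2.04 whose adjusted p was 0.0977 by edgeR. In vascular cells it was at 0.545 and 0.646 against 0.608 and 0.433, and the genotypes overlapped (log2 fold change -0.43 ± 0.325 SE, adjusted p = 1 by edgeR). Which exons the floxed allele loses is not given in the sources used here, so counts of *Tek* transcript need not follow the deletion fully.

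*Gja4* was an endothelial gene in these hearts. Its level was 1.26 to 3.87 in vascular cells, 1.28 to 2.30 in chamber EdCs and 0.506 to 1.11 in cushion EdCs over the 4 libraries. The ranges of vascular cells and chamber EdCs overlapped, whereas the ranges of chamber and cushion EdCs did not. Every other named class lay at or below 0.115, with MCs at 0.0257 to 0.0404, epicardial cells at 0.0048 to 0.0164, ventricular CMs at 0.0048 to 0.0062 and red blood cells at 0.0007 to 0.0062. An unnamed cluster of cells with few UMIs, led by *Gngt2* and *Klhl4* and holding chamber EdC markers, had 0.482, 0.269, 0.741 and 0.141 in libraries 5, 6, 7 and 8.

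**Figure D1:**
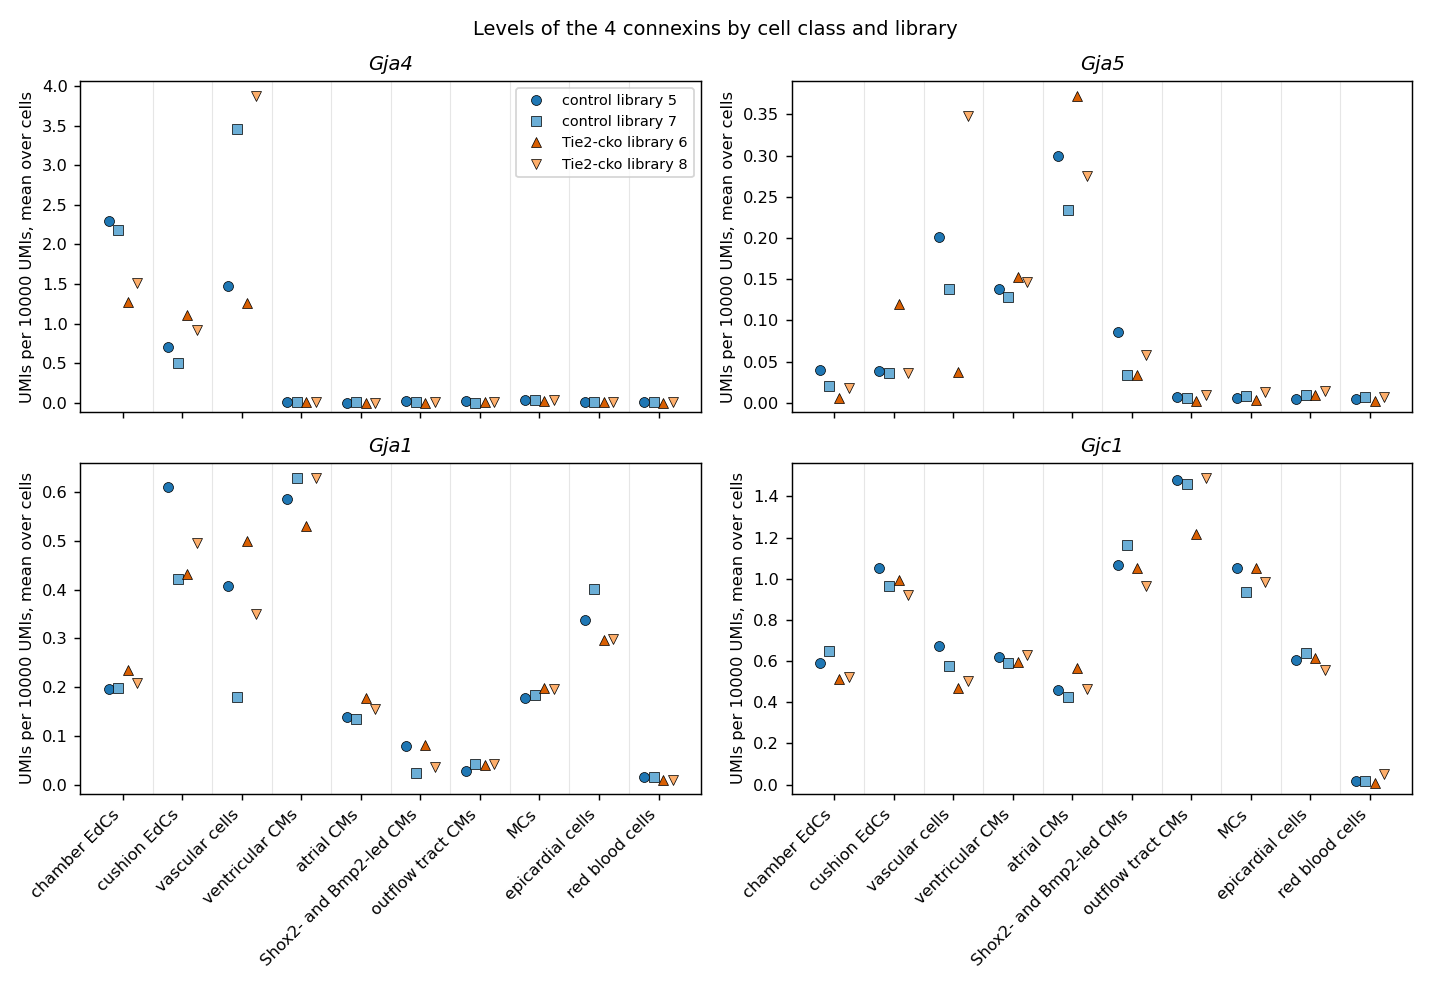
Level of each connexin (y axis, UMIs per 10000 UMIs, mean over the cells of a library) in 10 cell classes (x axis); each point is 1 library. *Gja4* lies above 0.5 in the 3 endothelial classes alone among those drawn, and of the classes drawn *Gja5* is highest in atrial CMs, *Gja1* in ventricular CMs and *Gjc1* in outflow tract CMs by mean level.

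In chamber EdCs, *Gja4* was at 2.30 and 2.18 in controls 5 and 7 and at 1.28 and 1.52 in *Tie2-cko* 6 and 8. Both *Tie2-cko* libraries lay below both controls (mean 2.24 ± 0.083 SD against 1.40 ± 0.169, n = 2 each), and the fitted log2 fold change was -0.79 (SE 0.137). In cushion EdCs, *Gja4* was at 0.708 and 0.506 in the controls and at 1.11 and 0.915 in *Tie2-cko*. Here both *Tie2-cko* libraries lay above both controls (mean 0.607 ± 0.143 SD against 1.01 ± 0.138), with a fitted log2 fold change of 0.93 (SE 0.20). These are the values the gene was chosen for, and the difference between the 2 classes was not tested. The summed level of 8 MC markers was higher in both *Tie2-cko* libraries in each class. In chamber EdCs it was at 1.206 and 1.485 against 0.957 and 1.024, and in cushion EdCs at 4.627 and 4.331 against 3.944 and 3.988. The sum of 4 chamber EdC markers was also higher in both in chamber EdCs, at 10.02 and 9.135 against 8.636 and 8.391. In cushion EdCs that sum overlapped, at 2.161 and 1.91 against 1.949 and 1.941. The part of these sums in the *Gja4* values was not tested.

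Cells differ in depth, so every cell with at least 5500 UMIs was first thinned at random to 5500 UMIs. Shallower cells were left out, which kept 1461 of 1574 chamber EdCs, 1269 of 1307 cushion EdCs and 230 of 252 vascular cells. The shares of cells with a UMI are given with exact (Clopper-Pearson) 95% intervals that cover counting error only. Among chamber EdCs, 55.7% (50.4 to 61.0) and 57.8% (53.6 to 62.0) of control cells in libraries 5 and 7 held a *Gja4* UMI, against 33.6% (25.4 to 42.6) and 42.9% (38.2 to 47.7) of *Tie2-cko* cells in libraries 6 and 8. Without thinning and over all cells of the class, the shares were 75.1%, 78.3%, 73.9% and 58.3% in the same order. The deeper library 6 then lay only just under the controls. Chamber cells with a *Gja4* UMI held a mean of 2.33 and 1.99 UMIs in controls and of 1.91 and 1.92 in *Tie2-cko*.
In cushion EdCs, 13.6% (9.74 to 18.4) and 10.6% (7.83 to 13.8) of control cells held a *Gja4* UMI after thinning, against 16.03% (10.2 to 23.5) and 17.1% (13.7 to 21.0) of *Tie2-cko* cells. All of these intervals overlapped, those of libraries 7 and 8 narrowly. Cushion cells with a UMI held 2.47 and 2.59 in controls and 3.05 and 3.04 in *Tie2-cko*. Red blood cells were taken to express no *Gja4* and to show the free RNA, which was not tested. In them, 0 to 0.493% of thinned cells held a *Gja4* UMI (in library 8 none did, with an interval up to 2.13%). Their median depths were 22811.5 to 60281 UMIs before thinning, against 10984 to 26840.5 in the 2 EdC classes. Thinning may thus dilute free RNA more in them than in EdCs. Of 3238 thinned MCs, 50 held a *Gja4* UMI. All EdC shares lay far above those of red blood cells and MCs.

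**Figure D2:**
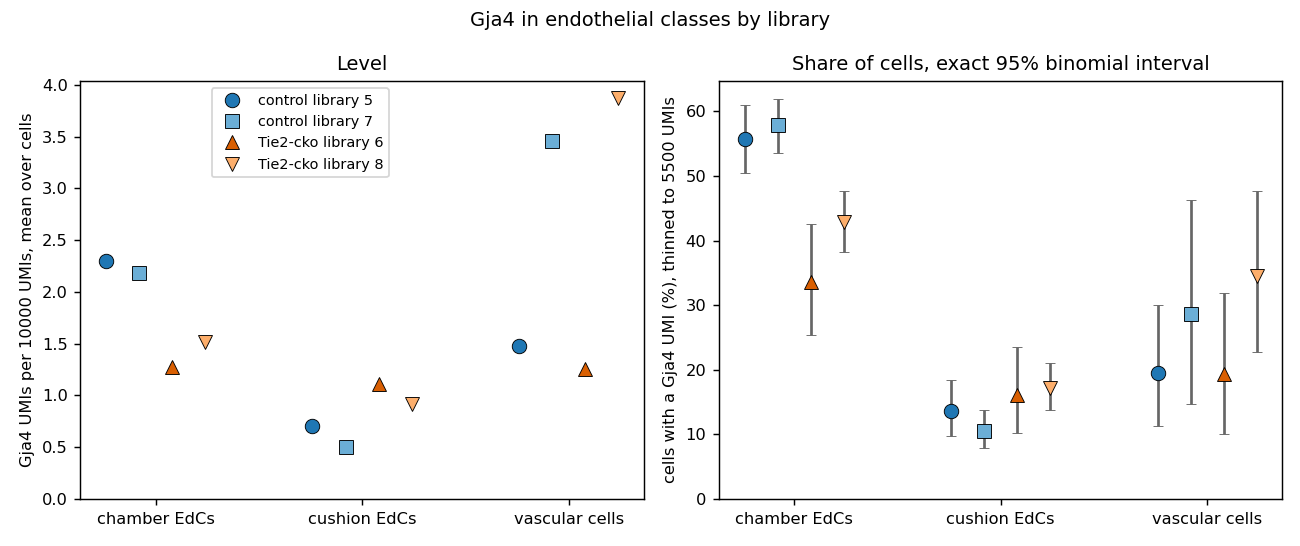
*Gja4* in the 3 endothelial classes by library: left, level (UMIs per 10000 UMIs); right, share of cells with a *Gja4* UMI after thinning (%), with bars for exact 95% binomial intervals. *Tie2-cko* points lie below the control points in chamber EdCs and above them in cushion EdCs, while libraries of a genotype lie far apart in vascular cells.

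Within cushion EdCs, *Gja4* was carried by a minority of cells. Of 1269 thinned cushion EdCs, 178 held a *Gja4* UMI, and these were compared with the other cushion cells within each library. Of 14 arterial endothelial genes, 7 were higher in the *Gja4*-positive cells of all 4 libraries and 2 were lower (*Unc5b* and *Cxcr4*). Among the 7 were *Acvrl1*, the BMP9 and BMP10 receptor ALK1 (0.216 against 0.0077, 28.0-fold over the mean of libraries), *Hey1*, a Notch target (3.04-fold), *Sox17*, a transcription factor of arterial identity (3.68-fold), and *Efnb2*, the arterial ephrin (2.43-fold). Of 5 vascular endothelial markers outside the EdC list, 4 were higher in all 4 libraries (*Cldn5*, *Plvap*, *Cd34* and *Clec1b*). *Cldn5*, a tight junction protein, was at 0.592 against 0.0288 (20.6-fold). *Plvap* was also a leading gene of the chamber EdC cluster and *Cd34* of the cushion EdC cluster, so neither sets vessels apart here. Of 6 general EdC markers, 4 were also higher in all 4 libraries (*Cdh5*, *Tie1*, *Ecscr* and *Pecam1*) and 0 were lower. Of 4 chamber EdC markers, *Emcn* (4.67-fold), *Gata2* (2.21-fold) and *Npr3* (1.34-fold) were higher in all 4 libraries and *Gpr182* was lower in all 4 (0.29 times), and no venous gene of 5 was higher or lower in all 4 libraries.
The cushion markers ran the other way. Of 7, 5 were lower in *Gja4*-positive cells in all 4 libraries (*Wnt4*, *Wnt9b*, *Twist1*, *Postn* and *Tbx20*), with ratios of 0.27 for *Wnt4*, 0.43 for *Twist1* and 0.14 for *Postn*. Of 12 transcription factors known to act on connexin genes, 6 were lower in all 4 libraries and 0 were higher. Among the 6, the flow-responsive factors *Klf2* and *Klf4* were at 0.49 and 0.48 of their level in the other cushion cells. *Gata4* and *Foxo1* were at 0.55 and 0.69. Over all 9465 genes at a level of at least 0.05 in thinned cushion EdCs, 8.44% were higher and 12.2% were lower in *Gja4*-positive cells of all 4 libraries. Of the listed genes at that level, 6 of 12 arterial genes, 3 of 3 vascular, 4 of 6 EdC and 3 of 4 chamber EdC markers were higher. Lower were 5 of 7 cushion markers, 5 of 7 of these transcription factors, 2 of 12 arterial genes and 1 of 4 chamber EdC markers. These counts and ratios are descriptions within libraries, and the small levels rest on few UMIs.

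**Figure D3:**
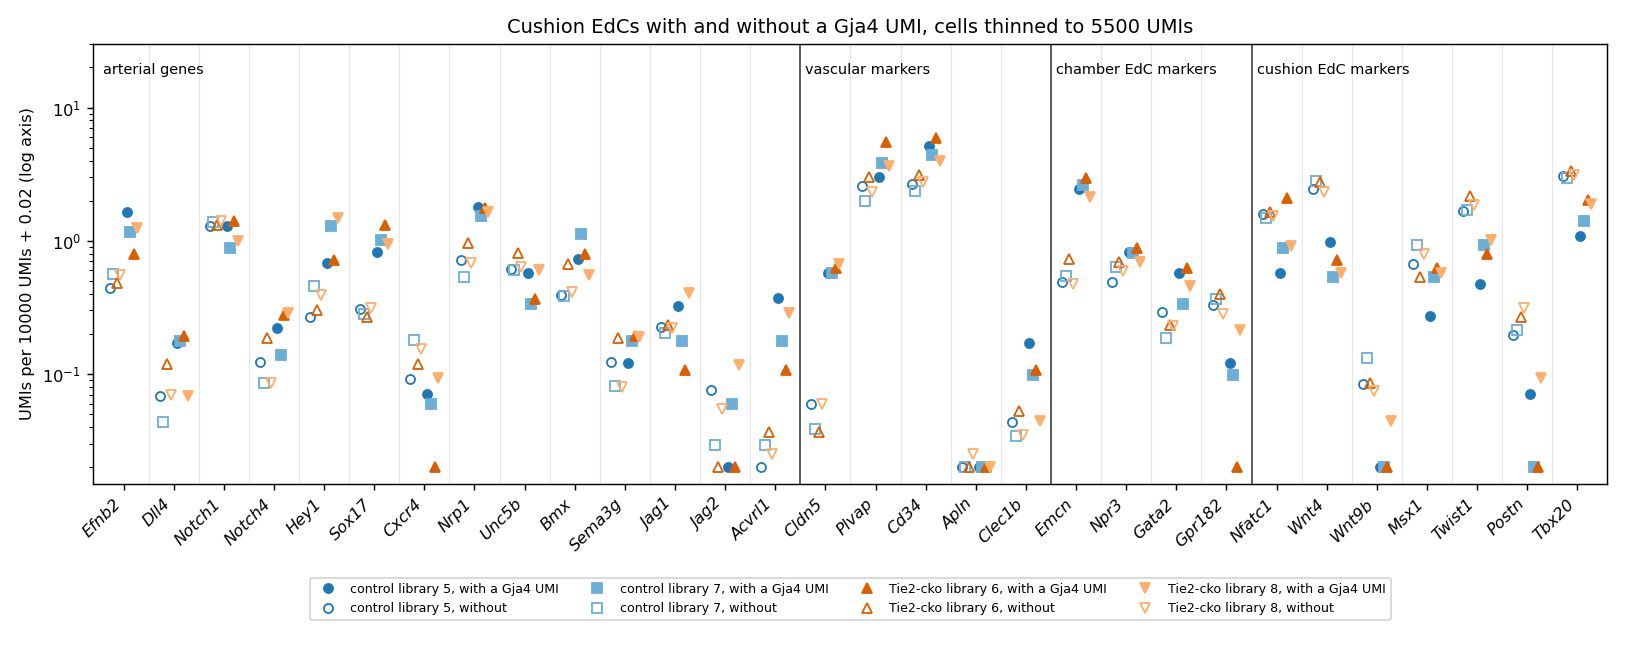
Cushion EdCs with (filled) and without (open) a *Gja4* UMI after thinning: level of each gene (y axis, UMIs per 10000 UMIs plus 0.02, log axis) in each library, for arterial genes, vascular, chamber EdC and cushion EdC markers. *Acvrl1* and *Cldn5* are higher in filled points of all 4 libraries, and *Wnt4* and *Postn* are lower.

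The summed level of all 8 vascular markers in cushion EdCs was 11.18 and 9.815 in controls 5 and 7 and 12.52 and 10.98 in *Tie2-cko* 6 and 8, which overlapped. This sum includes *Cdh5*, *Tie1* and *Pecam1*, which are EdC markers too, so it does not measure vascular cells alone. Since *Acvrl1* and *Cldn5* had the largest ratios of the genes looked at that were detected in both kinds of cell, cushion EdCs were split by a UMI of either gene, a split chosen after these values were seen. After thinning, 5.30% (2.93 to 8.74) and 4.13% (2.47 to 6.45) of control cells in libraries 5 and 7 held such a UMI, against 6.11% (2.67 to 11.7) and 6.62% (4.48 to 9.37) of *Tie2-cko* cells in libraries 6 and 8. These few cells held 50.6%, 62.5%, 37.8% and 44.7% of all *Gja4* UMIs of the thinned cushion EdCs in libraries 5, 6, 7 and 8. Both genes were picked for being high beside *Gja4*, so a high *Gja4* level in these cells follows in part from the choice. Their *Gja4* level was 5.84 and 4.55 in controls and 9.09 and 6.40 in *Tie2-cko*. In the cushion cells without such a UMI, *Gja4* was at 0.320 and 0.322 in controls and at 0.355 and 0.560 in *Tie2-cko*.
With every cushion cell holding such a UMI left out before thinning (21, 16, 29 and 48 cells in libraries 5, 6, 7 and 8), the fitted log2 fold change of *Gja4* was 0.19 (SE 0.217) in place of 0.93, and the genotypes overlapped. The cells left out were picked through genes that were high beside *Gja4*, so cells rich in *Gja4* leave by construction, and nothing is read from the smaller value. In chamber EdCs, cells without either UMI were at 2.30 and 2.01 in controls and at 1.15 and 1.497 in *Tie2-cko*.

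**Figure D4:**
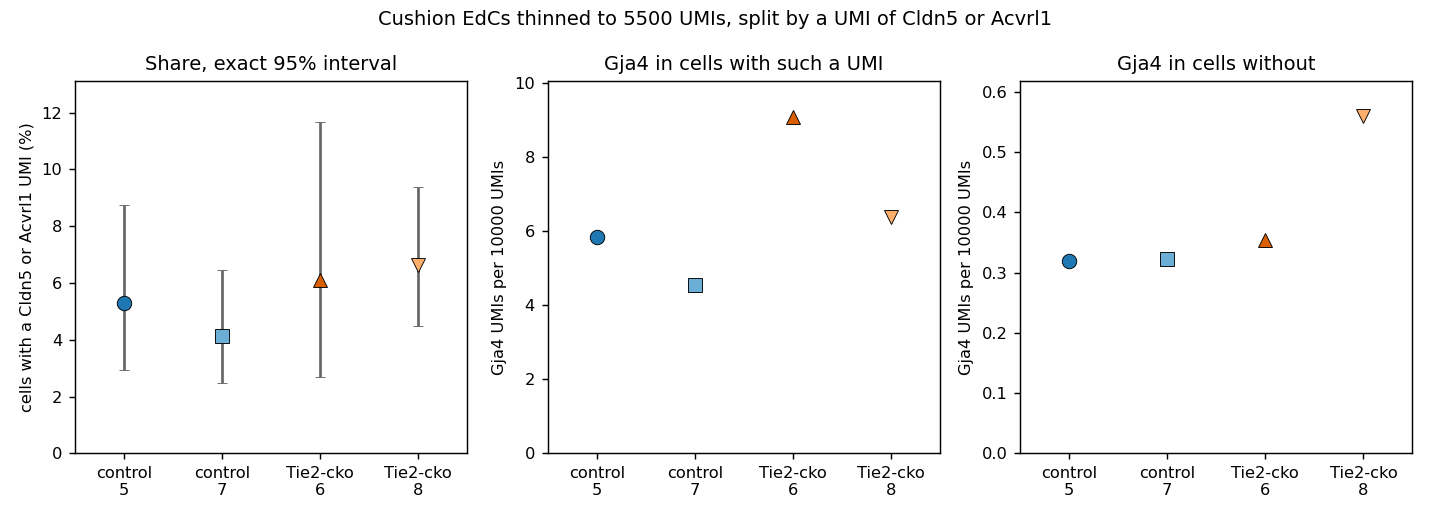
Cushion EdCs thinned to 5500 UMIs and split by a UMI of *Cldn5* or *Acvrl1*, by library: share of cells with such a UMI (%, exact 95% interval), *Gja4* level (UMIs per 10000 UMIs) in these cells, and *Gja4* level in the cells without. Levels are 4.55 to 9.09 with such a UMI and 0.320 to 0.560 without, and both genes were picked for being high beside *Gja4*.

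In vascular cells, *Gja4* separated libraries 5 and 6 from 7 and 8 more than the genotypes, with 1.48 in control 5, 1.26 in *Tie2-cko* 6, 3.46 in control 7 and 3.87 in *Tie2-cko* 8. The genotypes overlapped, and edgeR gave a log2 fold change of 0.41 (SE 0.62, adjusted p = 1). The value turned to -0.72 without library 8 and to -0.25 without library 5, and was 1.36 without library 7 (adjusted p 0.0564 to 1 over the alternatives). The shares of cells with a UMI after thinning were 19.5%, 19.3%, 28.6% and 34.4% in libraries 5 to 8, and 26.2% of cells in library 8 held 5 or more UMIs, against 5.26% to 11.4% in the others.
Of the 230 thinned vascular cells, 57 held a *Gja4* UMI. In these, *Hey1* was at 17.5 times the level in the other vascular cells, higher in all 4 libraries. *Dll4*, a Notch ligand of arteries, was at 3.91 times and *Efnb2* at 2.28 times, also higher in all 4 libraries. These were 3 of 14 arterial genes, of which 0 were lower in all 4 libraries, and others differed less evenly, such as *Acvrl1* at 0.82 times, lower in 3 of 4. Of 5 venous genes, *Nr2f2*, *Nrp2* and *Flt4* were at 0.31, 0.23 and 0.63 times, lower in all 4, while *Ephb4* was at 1.01 times. The vascular marker *Cldn5* was at 0.70 times, lower in 3 of 4. Over all 8869 genes at a level of at least 0.05 in thinned vascular cells, 5.81% were higher and 9.01% lower in all 4 libraries.

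Among named classes, *Gja5* was highest in atrial CMs, at 0.299, 0.372, 0.234 and 0.275 in libraries 5, 6, 7 and 8. Vascular cells (0.202, 0.037, 0.138 and 0.348) overlapped both atrial CMs and ventricular CMs (0.138, 0.153, 0.129 and 0.147), but ventricular CMs stayed below atrial CMs in every library. An unnamed cluster with few UMIs, led by *Mhrt* and *Lars2*, overlapped atrial CMs at 0.103 to 0.324. Outflow tract CMs had 0.0019 to 0.0097 and MCs 0.0035 to 0.0134.
In EdCs *Gja5* was scarce. In chamber EdCs it was at 0.040 and 0.021 in controls and at 0.0054 and 0.018 in *Tie2-cko*, resting on 29, 19, 4 and 12 UMIs in libraries 5, 7, 6 and 8 (log2 fold change -1.23, SE 0.552, and -0.71 to -2.11 with 1 library left out). In cushion EdCs it was at 0.038 and 0.036 in controls and at 0.120 and 0.036 in *Tie2-cko* (log2 fold change 0.87, SE 0.447, and 0.16 without library 6). The cushion genotypes overlapped.
*Gja5* was found with *Gja4* in the same cells of cushions and vessels, though in few of them. Pooled over the 4 libraries, it had a UMI in 8.99% of the 178 *Gja4*-positive cushion EdCs (16 cells) and in 0.825% of the others. In vascular cells the pooled shares were 19.3% (11 cells, 7 of them in library 8) and 0.578%. In chamber EdCs they were 1.62% and 1.11%. By library (5, 6, 7, 8), the cushion shares were 16.7%, 9.52%, 13.0% and 2.67%, against 0.877%, 1.82%, 0.256% and 1.10% of the others.

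Among named classes, *Gja1* had its highest mean levels in ventricular CMs, at 0.586, 0.530, 0.629 and 0.630 in libraries 5, 6, 7 and 8. Cushion EdCs came next, at 0.612, 0.433, 0.423 and 0.497. The 2 classes overlapped, and epithelial cells (0.294 to 0.601) and neural cells (0.077 to 0.634) overlapped both. An unnamed cluster led by *Crabp1* and *Dkk2* lay higher, at 0.839 to 1.24 (325 cells, 12 and 3 of them in libraries 7 and 8), and one led by *Crabp1* and *Prrx1* had 0.544 to 0.851. Epicardial cells had 0.337, 0.297, 0.401 and 0.2997. Chamber EdCs had 0.196 and 0.198 in controls and 0.236 and 0.208 in *Tie2-cko*, below the cushion EdCs in every library. Atrial CMs lay at 0.135 to 0.178, and outflow tract CMs at 0.0273 to 0.0414.
In chamber EdCs both *Tie2-cko* libraries lay above both controls (log2 fold change 0.09, SE 0.169), by less than the standard error, and the sign turned with 1 library left out (-0.05 to 0.22). In cushion EdCs the genotypes overlapped (-0.15, SE 0.171). Pooled over the 4 libraries, a *Gja1* UMI was found in 16.3% of *Gja4*-positive and in 20.4% of *Gja4*-negative cushion EdCs. The share was lower in *Gja4*-positive cells in libraries 5 and 7 and higher in libraries 6 and 8.

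*Gjc1* was found in most classes. Among named classes it was highest in outflow tract CMs, at 1.48, 1.22, 1.46 and 1.49 in libraries 5, 6, 7 and 8. The unnamed cluster led by *Crabp1* and *Prrx1* overlapped them at 1.31 to 1.53. So did those led by *Lhx2* and *Shisa3* (1.03 to 1.38), *Barx1* and *Cxcl13* (0.692 to 1.33) and *Crabp1* and *Dkk2* (0.948 to 1.29). The MC cluster led by *Stmn4* and *Postn* also overlapped them (1.21 to 1.39). CMs led by *Shox2* and *Bmp2*, which hold atrioventricular canal and sinus venosus markers, had 0.965 to 1.16, MCs 0.935 to 1.05 and cushion EdCs 0.920 to 1.05, and these 3 classes overlapped one another. Ventricular CMs had 0.590 to 0.632, atrial CMs 0.425 to 0.567 and chamber EdCs 0.513 to 0.650. Cushion EdCs thus lay above chamber EdCs in every library.
In chamber EdCs *Gjc1* was at 0.589 and 0.650 in controls and at 0.513 and 0.522 in *Tie2-cko* (log2 fold change -0.18, SE 0.143). In cushion EdCs it was at 1.05 and 0.965 in controls and at 0.994 and 0.920 in *Tie2-cko* (-0.20, SE 0.126). In vascular cells it was at 0.674 and 0.574 in controls and at 0.471 and 0.502 in *Tie2-cko* (log2 fold change -0.60, SE 0.255, adjusted p = 1 by edgeR).

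Between genotypes, the 2 *Tie2-cko* libraries lay on one side of both controls for 4 of 4 connexins in chamber EdCs (3 lower and 1 higher), where 33.6% of 11493 tested genes did so, and for 1 of 4 (*Gja4*) in cushion EdCs, where 27.9% did. Both counts were part of the choice of the genes or of the same contrast, and nothing is read from them. In vascular cells the count was 1 of 4 (*Gjc1*, lower) against a background of 25%, in CMs 1 of 4 (*Gja4*, lower, at levels of at most 0.0113) against 20.7%, in MCs 1 of 4 (*Gja1*, higher) against 24.1% and in epicardial cells 1 of the 3 tested (*Gja1*, lower) against 25.6%. A count of 1 lies near each of these shares.
No connexin passed an adjusted p of 0.05 in the 4 classes where it was tested by edgeR. The share of all tested genes that passed was 0.0349% in vascular cells, 0% in CMs, 0% in MCs and 0.0335% in epicardial cells, beside 0.0087% in chamber EdCs (*Tek* alone) and 0% in cushion EdCs. At an unadjusted p under 0.05, 67 of 8585, 68 of 15618, 135 of 12671 and 132 of 11958 genes tested passed in the first 4 classes. *Gjc1* in vascular cells was the 1 connexin among them. In each of these classes the count lay below the share of 0.05 that chance alone would give. With the block for library pairs described below, 458, 993, 903 and 826 genes passed. The test without a block may thus be too strict here, and its high adjusted p-values say little. The reason was not tested. DESeq2 called 6, 2, 10 and 7 genes, none of them a connexin. In simulated counts with a set spread, edgeR called 34%, 79.6%, 57.4% and 70.8% of genes halved in these classes. That spread need not be the spread between these libraries, so the shares may be too high for these data. In simulated MCs, 95.7% of genes set to 0.25 of their level were called. In the measured MCs, *Tek* had a log2 fold change of -2.315 and was not called (adjusted p = 0.554 by edgeR). A lack of calls thus does not show a lack of change. In CMs the log2 fold changes of *Gja5*, *Gja1* and *Gjc1* were 0.08 (SE 0.122), -0.14 (SE 0.139) and -0.03 (SE 0.106), and in MCs those of *Gja1* and *Gjc1* were 0.14 (SE 0.136) and -0.0049 (SE 0.118). In epicardial cells *Gja1* had -0.31 (SE 0.161, adjusted p = 1.00 by edgeR), and *Gja5* failed the filter on low counts.

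**Figure D5:**
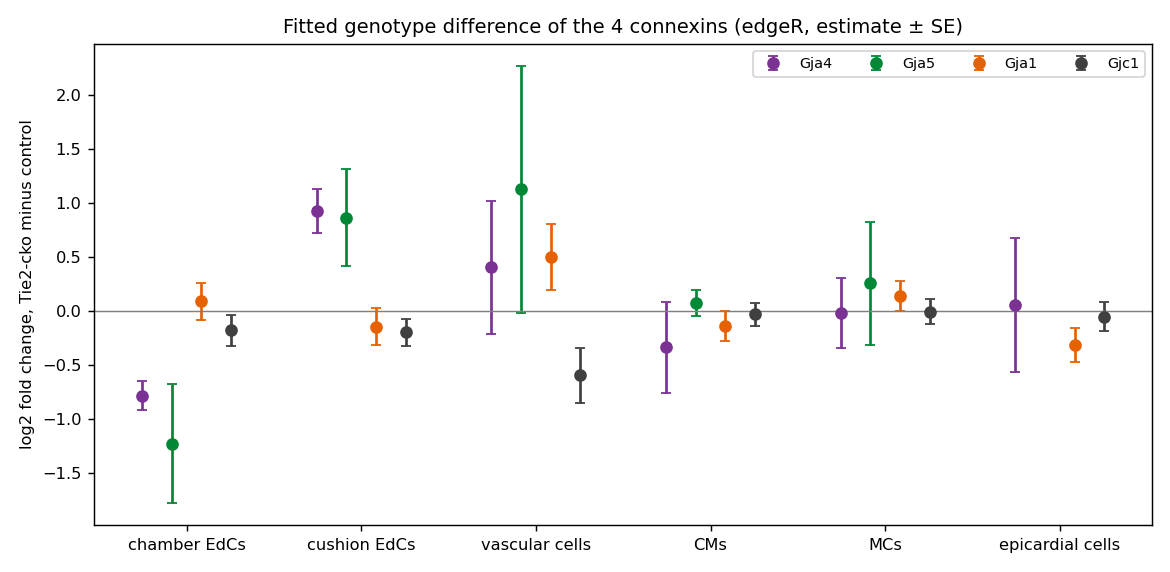
Fitted log2 fold change, *Tie2-cko* minus control (y axis), of the 4 connexins in 6 cell classes (x axis), with bars for 1 standard error, n = 2 libraries per genotype. *Gja4* lies at -0.79 in chamber and 0.93 in cushion EdCs, and *Gja5* in epicardial cells is missing because it failed the filter on low counts.

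The rest of the connexin family was scarce. Of 19 other connexin and pannexin genes, all in the files, *Panx1*, a channel protein of the pannexin family, alone exceeded 0.05 in any of the 6 classes, with 0.138 ± 0.022 (SD over 4 libraries) in cushion EdCs. Among 11 partners of gap junctions and adherens junctions, 0 passed in either direction in any class by edgeR's adjusted p. In chamber EdCs 2 of the 11 had an unadjusted p under 0.05, beside 784 of all 11493 genes tested: *Dsp* (desmoplakin) with a log2 fold change of 1.07 and *Cdh2* (N-cadherin) with 0.92, both higher in both *Tie2-cko* libraries and named after their values were seen. Their adjusted p was 0.285 and 0.432 by edgeR. The partners with the highest levels there were *Nedd4*, a ubiquitin ligase that acts on connexin 43, with a log2 fold change of 0.09, and *Ctnnb1* (beta-catenin) with 0.07. The median over the 11 was 0.19 in chamber EdCs and 0.08 in cushion EdCs, where the medians of all tested genes were 0.0047 and 0.0011.
Of the 14 arterial genes, 12 were tested in chamber EdCs and 14 in cushion EdCs, and 0 passed (median log2 fold change 0.38 and 0.15, with 2 genes each at an unadjusted p under 0.05, beside 784 of 11493 and 285 of 11394 genes tested). Those 2 were *Sox17* (1.01) and *Hey1* (0.58) in chamber EdCs and *Bmx* (0.44) and *Nrp1* (0.41) in cushion EdCs, named after their values were seen. *Nrp1*, a VEGF co-receptor, and *Notch1* had the highest levels in chamber EdCs, with log2 fold changes of 0.23 and 0.19 there. Of 5 venous genes 0 passed, with a median of 0.31 in chamber EdCs and 0.04 over the 4 tested in cushion EdCs, and *Nr2f2*, which specifies veins, had 0.43 and 0.56. *Nrp2*, another of these 5, had 0.98 and -0.72. Of 12 transcription factors known to act on connexin genes, 10 were tested in chamber and 9 in cushion EdCs and 0 passed, with medians of 0.14 and 0.08. *Klf2*, the highest of them in both classes, had 0.21 and -0.03, and *Foxo1* had -0.12 and -0.17.
*Col13a1*, a membrane collagen, was at -0.72 in chamber EdCs (SE 0.177, adjusted p = 0.387 by edgeR) and at -0.71 in cushion EdCs (SE 0.154, adjusted p = 0.941). *Nos3*, the endothelial nitric oxide synthase, was at -0.24 and -0.19 (SE 0.222 and 0.142).

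The genes most like each connexin were taken over 14 cell classes, CM subclasses counted apart, by Pearson's r of log2(level + 0.1) in control libraries among 8208 genes. The 14 points share libraries and differ in depth, and r is a description. For *Gja4* the 5 most alike were *Mmrn2* (r = 0.998), *Emcn* (0.99), *Scarf1* (0.99), *Adgrf5* (0.99) and *Sox7* (0.99). For *Gja5* they were *Abcc9* (0.85), *Ccn4* (0.82), *Trim11* (0.81), *Cav1* (0.78) and *Nppa* (0.76), for *Gja1* *Mycn* (0.87), *Cep41* (0.87), *Cenpf* (0.82), *Ubap2* (0.81) and *Mest* (0.81), and for *Gjc1* *Wbp1* (0.96), *Nbea* (0.96), *Nedd4* (0.95), *Lpp* (0.95) and *Grcc10* (0.95). The likeness was closest for *Gja4*, and weakest for *Gja5* and *Gja1*.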

How the data were processed

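The 4 libraries were grouped by genotype from their labels. UMI counts per gene and barcode were made by the authors with Cell Ranger (6.1.2 per the file headers; the methods name another version) against mm10 per the submitters' processing notes, and deposited as raw counts. The 4 genes and all lists were chosen with earlier results of these data known. Barcodes were dropped below 500 genes, below 1000 UMIs or above 10% mitochondrial UMIs. The highest Scrublet scores (scanpy 1.11.5) were removed at 0.8% per 1000 barcodes (982, 285, 664 and 798 in libraries 5, 6, 7 and 8), since the automatic threshold marked 0, 3, 305 and 1. Seurat 5.3.0 clustered 33419 cells without integration on 2000 variable genes, less the listed genes, with 30 components and resolution 0.8, giving 27 clusters. Names needed at least 3 markers and more than 0.5 of a list, and EdC clusters were divided by chamber and cushion markers.

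Counts summed per library and class were tested with edgeR 4.0.16 (TMM, filterByExpr, quasi-likelihood) in R 4.3.3, with Benjamini-Hochberg adjustment over all genes of a class. Fits and calls were tested on simulated data. Alternatives were DESeq2 1.42.0, no filter on low counts, a library pair block, each library left out, resolutions 0.4 and 1.2, stricter cell filters, no doublet removal and counting low-UMI endothelial cells. Named genes are the 4 connexins, *Tek*, *Nos3*, *Col13a1*, the 5 genes most like each connexin, and the highest members of each list; those compared between *Gja4*-positive and other cells were named after their values were seen. Figures used matplotlib 3.10.9.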

Additional observations from a re-analysis of the deposited data

Results flagged for a closer look

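*Gja4* differed between genotypes in opposite directions in 2 classes named as endocardial cells. Both *Tie2-cko* libraries lay below both controls in chamber EdCs (log2 fold change -0.79) and above both controls in cushion EdCs (0.93). In cushion EdCs, the few cells with a *Cldn5* or *Acvrl1* UMI held 37.8% to 62.5% of the *Gja4* UMIs after thinning. Those genes were picked for being high beside *Gja4*. The other cushion cells were at 0.320 and 0.322 in controls and at 0.355 and 0.560 in *Tie2-cko*. *Gja4*-positive cells of the cushion class were lower in 5 of 7 cushion markers. The difference between the classes was not tested, and the gene was chosen for it. No cause was tested.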

How the results depend on the processing

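A known pairing could not be used, because neither the labels nor the methods say which somite-matched libraries belong together. A block for libraries 5 and 6 against 7 and 8, chosen with earlier results known, stood in for it: the number of genes called moved from 1, 0, 3, 0, 0 and 4 (chamber EdCs, cushion EdCs, vascular cells, CMs, MCs, epicardial cells) to 836, 143, 34, 61, 96 and 65. DESeq2 called 25, 8, 6, 2, 10 and 7, and without a filter on low counts 166, 43, 25 and 25 genes were called in chamber EdCs, cushion EdCs, vascular cells and MCs. Leaving out 1 library gave 17 to 48, 10 to 34, 8 to 33, 0 to 2, 1 to 15 and 6 to 66. Stricter cell filters gave 6 in cushion EdCs, no doublet removal 1 in epicardial cells, and leaving out cushion cells with a *Cldn5* or *Acvrl1* UMI (chosen after seeing the data) 5. The causes were not tested.

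*Gja4* kept its direction in the classes named chamber and cushion EdCs under every alternative run, though these classes did not always hold the same cells. Its log2 fold change ranged from -0.89 to -0.69 and from 0.65 to 1.26 with 1 library left out, was 0.63 in cushion EdCs without doublet removal, and 0.19 there without the *Cldn5*- or *Acvrl1*-holding cells, which takes out cells rich in *Gja4* by construction. Tested connexins kept their side of the threshold in 130 of 130 refits, and 17 changed sign. *Gja4* was 0.019 in CMs with stricter cell filters, and in epicardial cells -0.047 with DESeq2, -0.080 with the block and -0.32 without doublet removal. With 1 library left out, the ranges that crossed 0 were, in vascular cells, -0.72 to 1.36 for *Gja4* and -1.93 to 2.30 for *Gja5*; in CMs -0.74 to 0.23 for *Gja4*, -0.0066 to 0.17 for *Gja5* and -0.093 to 0.035 for *Gjc1*; in MCs -0.56 to 0.29 for *Gja4*, -0.033 to 0.71 for *Gja5* and -0.054 to 0.047 for *Gjc1*; and in epicardial cells -1.11 to 0.81 for *Gja4* and -0.17 to 0.058 for *Gjc1*. Vascular cells formed no class of their own at resolution 0.4 or without doublet removal, so no value was given there. At resolution 0.4 the class named cushion EdCs held 1575 cells with 8 of 8 vascular markers present. In the main clustering it held 1307 cells with 5 of 8. Its value at resolution 0.4 thus describes another set of cells, and that without doublet removal may do so too. The vascular class held 41 to 83 cells per library, and *Gja5* in EdCs rests on 4 to 49 UMIs a library.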
